A study of Rattus norvegicus with 10 samples.

Results

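The 10 long non-coding RNAs (lncRNAs) described here are those in the study's supplementary list of up-regulated lncRNAs in the aorta of rats given lipopolysaccharide (LPS). They are XR_592112, XR_349314, XR_596552, XR_362127, XR_594785, XR_592660, ENSRNOT00000089798, XR_349493, ENSRNOT00000077237 and XR_355499, and each was matched by probe name to 1 probe of the array. They make up 10 of 9374 lncRNA probes, of which 7462 were tested, and 10 of 38804 probes in all. The list was drawn from the difference between the LPS and control groups on these same arrays. The level of each lncRNA in the LPS group against the control group is therefore a description of how it was chosen, with no test.

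The animals were male Wistar rats aged 8 week. The LPS group received LPS intraperitoneally at 10 mg/kg in saline, a model of endotoxaemia rather than of an infection, and the control group received saline alone. The aorta, labelled as blood vessel, was collected 24 h later, and total RNA from 5 rats of each group was labelled and read on 10 Agilent arrays of 1 colour, each array carrying the RNA of 1 rat. Each rat is named below by the number in its label.

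A lncRNA is a transcript without a long reading frame, and lncRNAs can act in the nucleus on chromatin and transcription or in the cytoplasm on other RNAs and on proteins. LPS is a component of the outer membrane of Gram-negative bacteria that is sensed by Toll-like receptor 4 on immune, endothelial and smooth muscle cells, and the signal reaches promoters through factors such as NF-kappaB, AP-1, C/EBP, IRF and STAT proteins. The aortic wall holds endothelium, smooth muscle, fibroblasts and adjacent fat, and in whole tissue a change in the number of cells of a type cannot be told apart from a change in the RNA per cell. No function of any of the 10 lncRNAs is assumed here.

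Of the 10, 8 carry RefSeq transcript IDs and 2 carry Ensembl IDs, and they are spread over 9 chromosomes, with both Ensembl transcripts on chromosome 6. The gene number of 5 of them was found in the RefSeq annotation of the GRCr8 assembly, where all 5 are typed as lncRNA, and the transcript accession itself was found for XR_362127 only. XR_349314 (LOC102555426, chromosome 9, minus strand) overlaps Dlgap1, which encodes a postsynaptic scaffold protein and is on the plus strand. The next coding gene is Tgif1, a homeobox repressor of TGF-beta signalling. XR_592660 (LOC103692427, chromosome 5) overlaps Pde4b, which is on the plus strand and encodes a cAMP phosphodiesterase of immune and other cells. XR_362127 (LOC102548205, chromosome 20, minus strand) lies between Tfam, which encodes the mitochondrial transcription factor A, and Bicc1, which encodes an RNA-binding protein. XR_594785 (LOC102547310, chromosome 15, minus strand) lies between Ddhd1, a phospholipase gene, and Bmp4, which encodes a ligand of the TGF-beta family. XR_349493 (LOC102556643, chromosome 2) has Selenop, the gene of the plasma selenium transporter, as its next coding gene. The deposited files pair no probe with these neighbouring genes, so their own levels were not read. XR_592112, XR_596552 and XR_355499, annotated on chromosomes 4, 16 and 7, and the 2 Ensembl transcripts were not matched.

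In its qRT-PCR, the study names all of the lncRNAs described here as up-regulated except XR_594785 and XR_355499. For the 5 unmatched lncRNAs, the PCR primers of the study are the sequences that identify the transcript. The primers are shown for that reason, 5′ to 3′, in lower case with no part in capitals.
XR_592112 forward primer: gtctgtcccctcacttctgtc
XR_592112 reverse primer: tagccccatcacttagcatta
XR_596552 forward primer: gtaagtaagaggtcattgccca
XR_596552 reverse primer: tttcctctccaaccctctatg
ENSRNOT00000089798 forward primer: tgtcttgaacttgttaccatcc
ENSRNOT00000089798 reverse primer: tgagaaggttgctgtagtccc
ENSRNOT00000077237 forward primer: tgcctgggtagaaataagacac
ENSRNOT00000077237 reverse primer: atccatcattacctgccaca
XR_355499 forward primer: gccatacaatgtgcgaagagaag
XR_355499 reverse primer: gtttgaggggaaagcaaggaag

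RefSeq gives promoter windows for the genes of 3 of the others, each 300 bases long, with 250 bases before a start site and 50 bases from it. They belong to the gene, and the transcript accession itself was found there for XR_362127 only. For the gene of XR_349314, the first of 7 listed windows is shown. These windows are shown because no other lncRNA of the 10 has one in which binding motifs of LPS-responsive factors could be looked for. They are printed 5′ to 3′ on the strand of the gene, and capitals mark the 1 motif found in each. The window of XR_349314 is chr9:118112858-118113157 (GRCr8, minus strand), that of XR_362127 is chr20:17407718-17408017 (GRCr8, minus strand) and that of XR_594785 is chr15:21449519-21449818 (GRCr8, minus strand).
XR_349314 promoter, kappaB match in capitals: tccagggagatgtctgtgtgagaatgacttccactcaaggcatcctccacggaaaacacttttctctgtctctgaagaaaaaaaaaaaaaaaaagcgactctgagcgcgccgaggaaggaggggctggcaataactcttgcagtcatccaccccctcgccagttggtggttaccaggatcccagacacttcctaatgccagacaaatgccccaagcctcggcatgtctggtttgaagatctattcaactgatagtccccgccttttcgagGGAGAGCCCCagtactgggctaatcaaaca
XR_362127 promoter, C/EBP match in capitals: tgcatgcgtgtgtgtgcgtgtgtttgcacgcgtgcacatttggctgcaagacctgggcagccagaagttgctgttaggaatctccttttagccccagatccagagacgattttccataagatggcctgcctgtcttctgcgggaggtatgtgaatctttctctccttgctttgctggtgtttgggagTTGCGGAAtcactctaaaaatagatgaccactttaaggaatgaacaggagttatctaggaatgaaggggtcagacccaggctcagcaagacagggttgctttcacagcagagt
XR_594785 promoter, AP-1 match in capitals: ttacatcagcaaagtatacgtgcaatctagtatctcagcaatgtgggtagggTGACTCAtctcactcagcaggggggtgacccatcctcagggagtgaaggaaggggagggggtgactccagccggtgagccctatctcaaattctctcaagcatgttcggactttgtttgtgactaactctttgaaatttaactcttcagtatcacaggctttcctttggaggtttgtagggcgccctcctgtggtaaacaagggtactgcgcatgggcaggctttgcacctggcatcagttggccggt

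The motifs searched on both strands were the kappaB consensus, the AP-1 motif (TGANTCA), the ISRE (bound by IRF proteins and STAT complexes), the GAS motif (TTCNNNGAA, bound by STAT dimers), the C/EBP motif (TTGCNNAA) and the TATA box (TATAAA). The kappaB match of XR_349314 began 20 bases after the start and read on the minus strand relative to the gene. RefSeq lists 7 start sites for this gene, and a kappaB match was in the windows of all 7. A GAS match was in those of 4, though not in the window shown. Whether these windows overlap was not checked, so the same match may be counted in several of them. The C/EBP match of XR_362127 began 63 bases before the start. The AP-1 match of XR_594785 began 198 bases before the start and fits the motif on either strand. Among 33469 promoter windows of the same length, 7.51% held a kappaB match, 10.6% a C/EBP match, 7.33% an AP-1 match, 3.92% an ISRE, 8.87% a GAS and 14.2% a TATA box. A match describes these letters and not a site that was bound, and the other motifs were not in the 3 windows shown.

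All 10 probes were well above background on all 10 arrays, with 1 spot per array and none marked as an outlier, and no spot of any array was saturated. The intensity of a spot is background-corrected within its array. Levels are given as log2 of the intensity minus log2 of the 75th percentile on that array, which ranged from 190.3 to 453.7, so that 0 stands for the 75th percentile and a step of 1 for a doubling. Between 79.6% and 92.6% of probes were well above background on an array. In the median over spots, the arrays of control rats 15 and 17 and those of LPS rats 1 and 3 differed by less than the measurement noise. Their median squared difference was 0.778 and 0.984 of what the spot errors alone give, against 4.01 for the next closest pair. The 2 arrays of such a pair entered as their mean, so that each group has 4 samples. The labels give every array its own number, and whether a pair shares an animal or an extract is not given. Arrays with the same scan date entry in the scanner headers are called a slide here, and no slide name was read. Of the 3 such slides, the first carried control rats 15 to 18. On slide 2 were LPS rats 1, 3 and 5 with control rat 20, and on slide 3 LPS rats 6 and 7. With 4 samples in a group, every value has limited precision. Nothing beyond the numbers in the labels says that samples of a group were processed separately, so the spread between them may be in part technical.

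The widest separation of the groups was that of XR_592112. Its level was -0.77 in LPS rats 1 and 3, -0.56 in rat 5, -0.37 in rat 6 and 0.62 in rat 7. In the control group it was -4.21 in rats 15 and 17, -4.55 in rat 16, -4.59 in rat 18 and -3.91 in rat 20. The 2 groups were far apart, and rat 7 was the high sample of the LPS group. The group means were -0.27 ± 0.62 and -4.32 ± 0.32 (SD, n = 4 each), a difference of 4.05 ± 0.35 (SE), or 16.5-fold. The controls were dim, however. The intensity was between 8.12 and 26.5 on the control arrays and between 152.3 and 568.6 on the LPS arrays. With normexp background correction and an offset of 50, which pulls dim probes together, the difference of XR_592112 was 1.95.

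The gene of XR_349314 overlaps Dlgap1 and has a kappaB match in the promoter window shown. XR_349314 had LPS levels of 2.29 in rats 1 and 3, 2.26 in rat 5, 2.51 in rat 6 and 1.57 in rat 7. The control levels were -1.29 in rats 15 and 17, -0.77 in rat 16, -1.63 in rat 18 and 0.27 in rat 20. Control rat 20 stood above the other controls and rat 7 below the other LPS samples, and the groups did not overlap. The difference was 3.01 ± 0.46 (SE, n = 4 each), or 8.07-fold.

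XR_362127, the transcript between Tfam and Bicc1, was at 2.54 in LPS rats 1 and 3, 3.31 in rat 5, 3.39 in rat 6 and 3.81 in rat 7. It was at -0.26 in control rats 15 and 17, 0.97 in rat 16, -0.39 in rat 18 and 1.24 in rat 20. The controls fell into a lower and a higher pair, with rats 16 and 20 in the higher one, and all of them were below the LPS samples. The difference was 2.87 ± 0.49 (SE, n = 4 each), or 7.32-fold.

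XR_594785, whose gene lies between Ddhd1 and Bmp4 with an AP-1 match in its promoter window, was the 1 of the 10 whose groups overlapped. Its LPS levels were -1.39 in rats 1 and 3, 1.95 in rat 5, 0.97 in rat 6 and 1.71 in rat 7. Its control levels were -2.38 in rats 15 and 17, -3.50 in rat 16, -1.09 in rat 18 and -2.08 in rat 20. LPS rats 1 and 3 lay below control rat 18, by 0.29 on the log2 scale, and both of their arrays read the same value of -1.39. The LPS samples had an SD of 1.52, and the difference of the means was 3.07 ± 0.91 (SE, n = 4 each), or 8.41-fold.

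XR_592660, whose gene overlaps Pde4b, was at -0.17 in LPS rats 1 and 3, 0.28 in rat 5, -1.24 in rat 6 and -0.80 in rat 7. It was at -3.83 in control rats 15 and 17, -2.69 in rat 16, -2.49 in rat 18 and -1.59 in rat 20. The arrays of control rats 15 and 17 read -3.46 and -4.20 for this probe, a distance of 0.73 against a spot error of 0.25. The lowest LPS sample, rat 6, stood only 0.35 above the highest control, rat 20. The difference was 2.17 ± 0.57 (SE, n = 4 each), or 4.50-fold. The controls were dim here too, with intensities between 16.6 and 132.5, and with normexp background correction the difference was 1.22.

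XR_349493, whose next coding gene is Selenop, was at 0.14 in LPS rats 1 and 3, 0.77 in rat 5, -0.16 in rat 6 and 0.41 in rat 7. It was at -2.58 in control rats 15 and 17, -1.59 in rat 16, -1.43 in rat 18 and -1.03 in rat 20. The controls had the same order as for XR_592660, with rats 15 and 17 lowest and rat 20 highest, and in both cases rat 5 was the highest and rat 6 the lowest LPS sample. The difference was 1.95 ± 0.38 (SE, n = 4 each), or 3.86-fold.

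The unmatched RefSeq transcripts XR_596552 and XR_355499 had intensities between 851.8 and 41508 and between 1799 and 20203, respectively. XR_596552 was at 6.46 in LPS rats 1 and 3, 5.86 in rat 5, 6.62 in rat 6 and 5.89 in rat 7, and at 3.64 in control rats 15 and 17, 4.53 in rat 16, 2.11 in rat 18 and 3.36 in rat 20. The controls covered a range of 2.43, with rat 18 lowest and rat 16 highest, and the LPS samples covered 0.76. The difference was 2.80 ± 0.54 (SE, n = 4 each), or 6.96-fold. XR_355499 was at 5.35 in LPS rats 1 and 3, 5.63 in rat 5, 4.99 in rat 6 and 5.27 in rat 7, and at 3.21 in control rats 15 and 17, 3.24 in rat 16, 3.58 in rat 18 and 4.48 in rat 20. Rat 20 stood apart from the other controls, 0.51 below the lowest LPS sample. The difference of 1.68 ± 0.32 (SE, n = 4 each), or 3.21-fold, was the smallest of the 10.

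The 2 Ensembl transcripts had the most even controls beside XR_592112. ENSRNOT00000089798 was at 2.61 in LPS rats 1 and 3, 1.56 in rat 5, 2.47 in rat 6 and 1.78 in rat 7, and at 0.07 in control rats 15 and 17, 0.09 in rat 16, -0.66 in rat 18 and 0.03 in rat 20. Control rat 18 stood below the other controls, which lay between 0.03 and 0.09. The difference was 2.22 ± 0.31 (SE, n = 4 each), or 4.67-fold. ENSRNOT00000077237 was at -0.10 in LPS rats 1 and 3, 0.07 in rat 5, -0.34 in rat 6 and -0.15 in rat 7, and at -2.03 in control rats 15 and 17, -2.38 in rat 16, -2.60 in rat 18 and -2.21 in rat 20. Its difference of 2.18 ± 0.15 (SE, n = 4 each), or 4.52-fold, had the smallest error of the 10. That small error rests on the average of LPS rats 1 and 3, whose arrays read 0.46 and -0.66. Their distance of 1.13 compares with a spot error of 0.20 on the log2 scale, and 2.17% of tested lncRNA probes differed at least as much between these near-identical arrays.

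**Figure D1:**
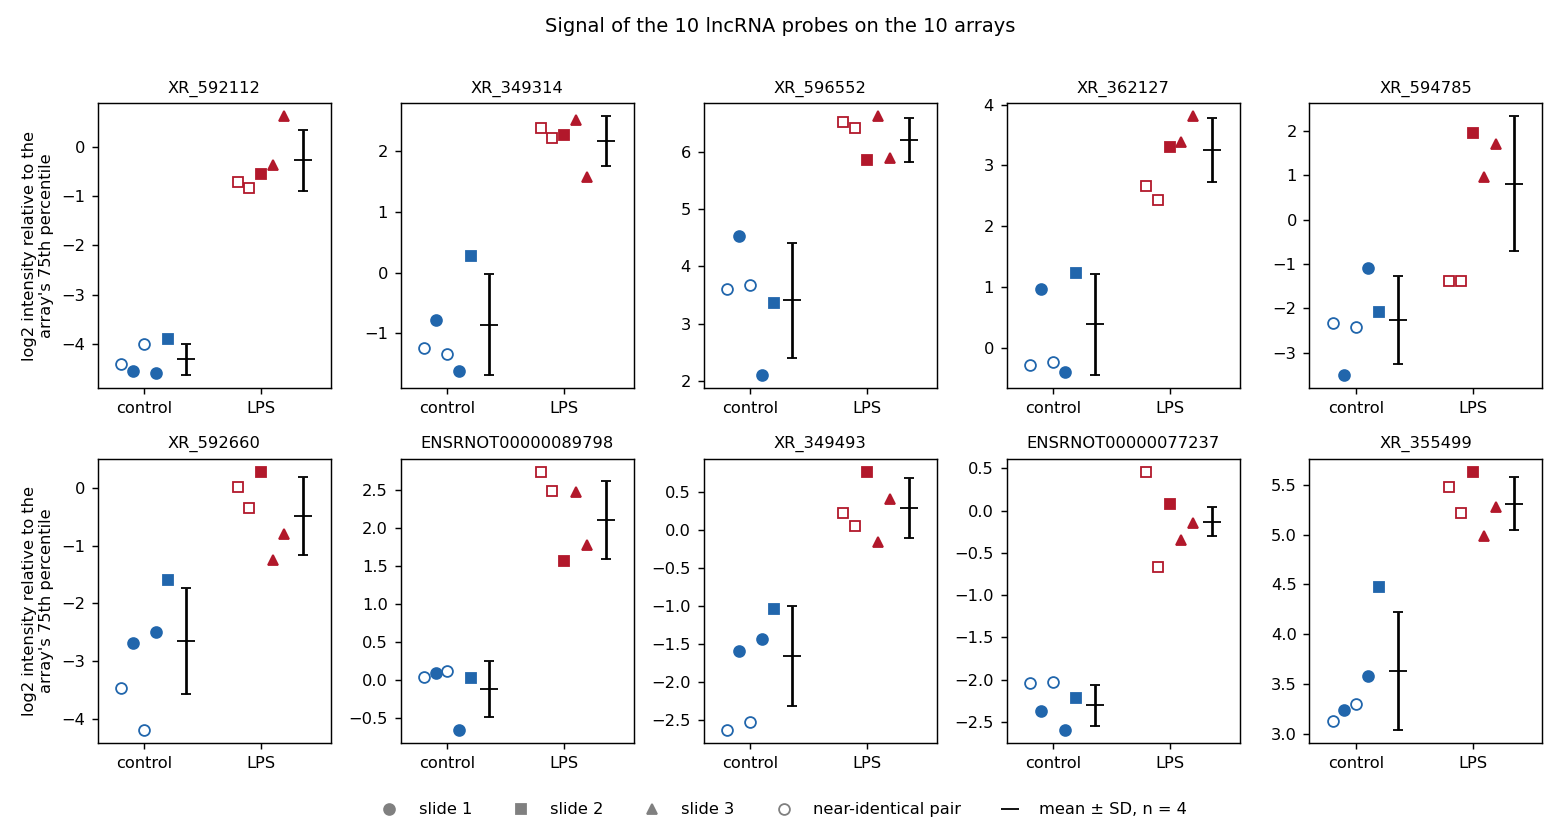
Level of each of the 10 lncRNA probes on the 10 arrays, as log2 intensity relative to the 75th percentile of the array (vertical axis, its own range in each panel), for the control and LPS groups; the shape of a point gives the slide, open points are the near-identical pairs, and the bar is the mean ± SD of 4 samples. All LPS samples lie above all controls for 9 of the 10 lncRNAs, and the open LPS points of XR_594785, at -1.39, lie below control rat 18.

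All 4 LPS samples were above all 4 controls for 9 of the 10 lncRNAs, beside 5.05% of all tested lncRNA probes. In limma, fitted over all tested mRNA and lncRNA probes, with calls made past a fold change of 1.5 and below an adjusted p of 0.05, 8 of the 10 were called higher, all but XR_594785 and XR_592660, beside 0.415% (31 of 7462) of tested lncRNA probes. Only 4 of the 10 were called when LPS rat 5, 6 or 7 was left out, with 13, 14 and 14 of all lncRNA probes, 5 without control rats 15 and 17, with 20 of all, and 5 after quantile normalisation, with 23 of all. Since the list was chosen from this contrast, nothing is read from these counts. The median difference of the 10 was 2.51, and that of all tested lncRNA probes was 0.14. With normexp background correction the median was 1.98, and the difference was 2.14 for XR_594785, 1.45 for ENSRNOT00000077237 and 1.38 for XR_349493. Without the near-identical LPS arrays the median was 2.44 and the difference of XR_594785 was 3.81, and without the near-identical control arrays the median was 2.47 and the lowest difference, that of XR_355499, was 1.54. The SD was larger in the control group for 7 of the 10, and for 70.6% of all tested lncRNA probes.

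The place of the 10 on the study's own scale was looked up in the authors' processed log2 values of the 10 arrays, with the methods' t-test without adjustment and a fold change above 1.5. Tested there were 8060 probes, which are the lncRNA probes and those with names that begin with uc., and 307 passed that threshold as up-regulated. The uc. probes stand for transcribed ultraconserved regions, and they made up 14 of the 307. The 10 lncRNAs ranked between 1 and 25 of the 307 by fold change, and 5 of them were among the first 10. XR_592112 ranked first with a log2 difference of 3.81, or 14.0-fold. XR_355499 ranked 25 with 1.81, or 3.51-fold, and the next probe by fold change, ASRNV20033629V3, had 1.79, or 3.45-fold. Between the first and the last of the 10, there were 15 probes that are not on the list, 9 of which were not well above background on all 10 arrays and 6 of which were. Fold change alone therefore does not give the list, and the further criterion is not given in the sources used here.

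**Figure D2:**
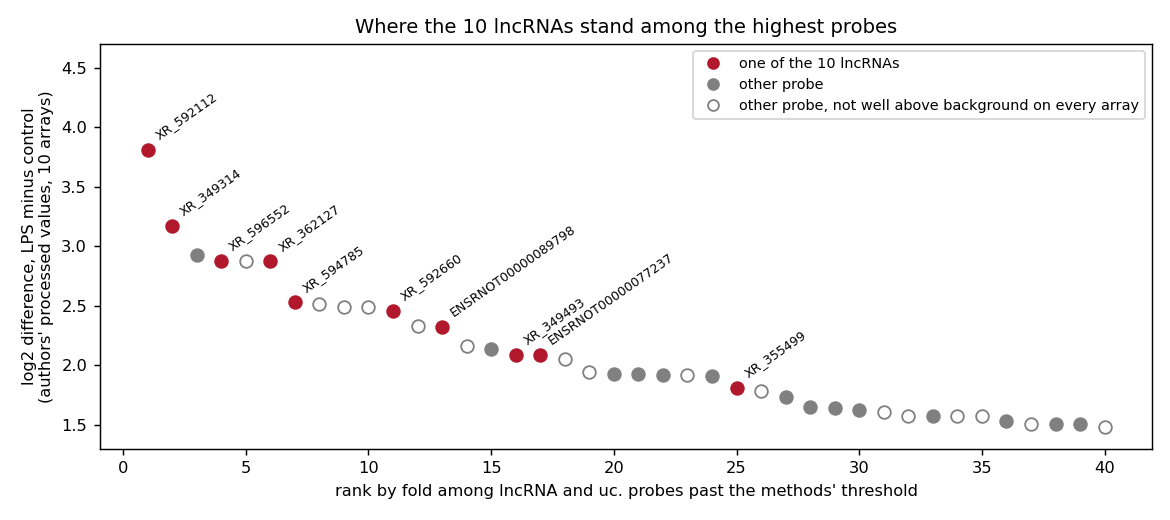
Log2 difference, LPS minus control, in the authors' processed values of 10 arrays (vertical axis) against rank by fold change (horizontal axis) for the highest lncRNA and uc. probes past the threshold of the methods; red points are the 10 lncRNAs, grey points other probes, and open points other probes not well above background on every array. The 10 lncRNAs run from 3.81 at rank 1 to 1.81 at rank 25, with 15 other probes between them.

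Slide 2 is the only slide with both groups. Within it, the LPS samples were LPS rats 1 and 3, averaged, and rat 5, against control rat 20. All 10 lncRNAs were higher in the LPS samples there, and for 8 of the 10 the difference was smaller than over all slides, with a median of 2.03 against 0.21 for all tested lncRNA probes. The difference was 3.25 for XR_592112, 2.80 for XR_596552, 2.36 for XR_594785, 2.20 for ENSRNOT00000077237 and 2.06 for ENSRNOT00000089798. It was 2.01 for XR_349314, 1.69 for XR_362127, 1.65 for XR_592660, 1.48 for XR_349493 and 1.01 for XR_355499. The comparison within slide 2 has 1 control and hence no error for that group. With the slide as a fixed block in limma, where the difference rests on slide 2, 0 of the 10 and 0 of all 7462 tested lncRNA probes were called at the adjusted threshold. At an unadjusted p under 0.05 and the same fold change, 9 of the 10 passed, beside 3.94% (294) of the lncRNA probes, and nothing is read from this count either.

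**Figure D3:**
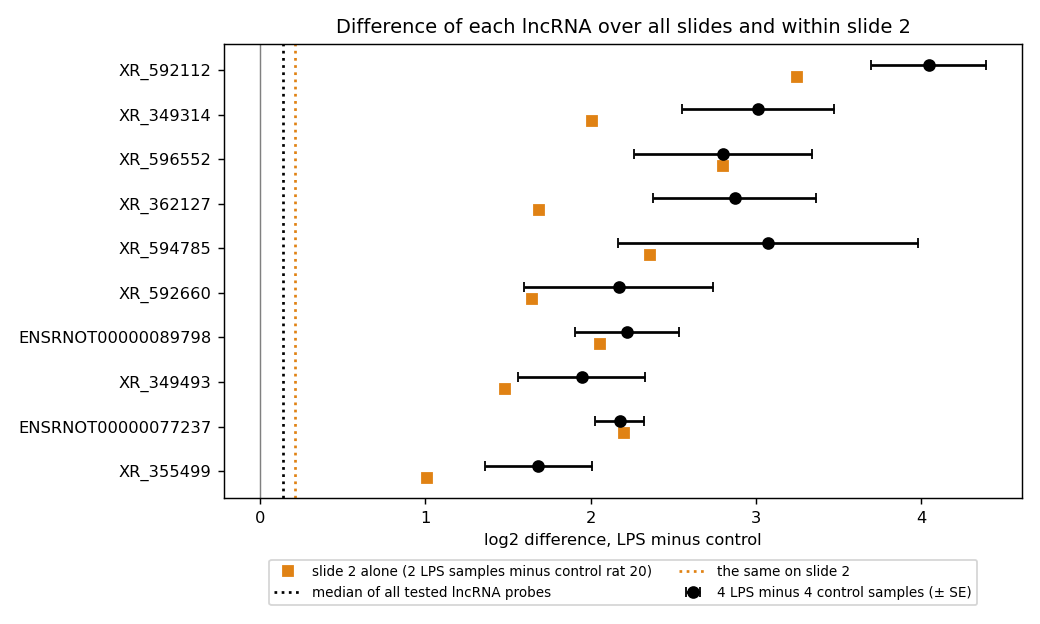
Log2 difference, LPS minus control (horizontal axis), of each of the 10 lncRNAs (vertical axis) over 4 LPS and 4 control samples (black points, bars ± SE) and on slide 2 alone (orange squares); dotted lines are the medians over all tested lncRNA probes in the same 2 comparisons. The slide 2 values run from 1.01 for XR_355499 to 3.25 for XR_592112, and the dotted lines lie at 0.14 and 0.21.

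The slides were also compared within each group. Control rat 20 was above the mean of the slide 1 controls for 9 of the 10 lncRNAs, with a median difference of 0.69, while it was above that mean for 49.0% of all tested lncRNA probes, with a median of -0.01. The gap was largest for XR_349314, at 0.27 in rat 20 against a mean of -1.23 in the slide 1 controls, and it was 1.41 for XR_592660, 1.14 for XR_355499 and 1.13 for XR_362127. It was 0.83 for XR_349493, 0.54 for XR_592112, 0.24 for XR_594785, 0.19 for ENSRNOT00000089798 and 0.12 for ENSRNOT00000077237, and -0.07 for XR_596552. Among the LPS samples, those of slide 3 were above those of slide 2 by 1.06 for XR_594785, 0.79 for XR_592112 and 0.67 for XR_362127, and by 0.10 and 0.04 for XR_596552 and ENSRNOT00000089798. They differed by -1.08 for XR_592660, -0.36 for XR_355499, -0.32 for XR_349493, -0.24 for XR_349314 and -0.23 for ENSRNOT00000077237. Control rat 20 is the only control on slide 2, so the rat and the slide cannot be told apart.

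The measure that the choice of the list did not fix is how the lncRNAs varied among samples of the same group. The mean of its group was subtracted from each sample, and the correlation of each pair of lncRNAs was computed over the 8 samples, which share their arrays. These correlations are descriptions over few samples. Over both groups together the 45 pairs had correlations between 0.56 and 0.97, with a median of 0.89, and 19 of them were at least 0.9, but the group difference by which the list was chosen enters these values. After subtraction the median was 0.15, with 30 pairs above 0 and 15 below, and only 1 pair reached 0.9. The higher values over both groups follow from the choice of the list, so nothing is read from the contrast. The same correlations were not computed for other lncRNA probes.

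XR_592660 and XR_349493 formed that pair, with r = 0.91, and XR_355499 had r = 0.86 with XR_592660 and r = 0.78 with XR_349493. These 3 lncRNAs, on chromosomes 5, 2 and 7, were lowest in control rats 15 and 17 and highest in control rat 20, and among LPS rats they were highest in rat 5 and lowest in rat 6. Without control rat 20 the values were 0.88, 0.85 and 0.75, in the same order. The r of XR_592660 with XR_349493 was 0.93 without the array of control rat 15 and 0.87 without that of control rat 17. A second set was XR_596552 and ENSRNOT00000089798, with r = 0.77, both lowest in control rat 18 and higher in LPS rats 1, 3 and 6 than in rats 5 and 7. XR_594785 ran the other way. Its r was -0.83 with ENSRNOT00000089798 and -0.70 with XR_596552, and without control rat 18 these were -0.79 and -0.67. The relation of XR_349314 to XR_355499 rested on control rat 20, since r was 0.61 with it and -0.37 without it.

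**Figure D4:**
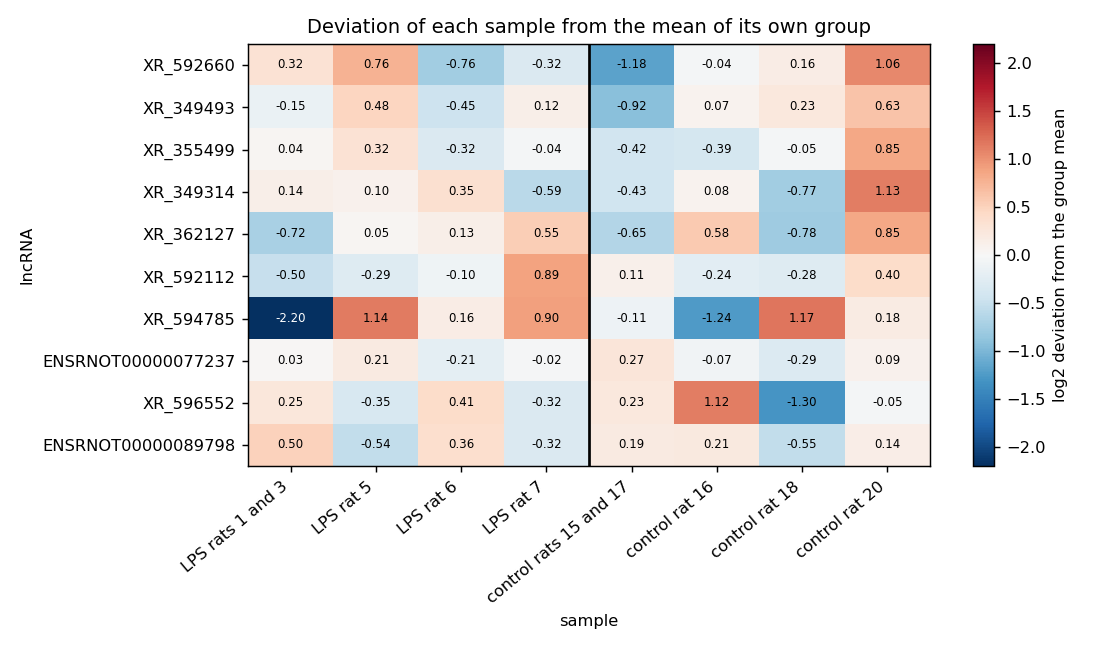
Deviation of each of the 8 samples (horizontal axis) from the mean of its own group, on the log2 scale, for each of the 10 lncRNAs (vertical axis); red is above and blue below the group mean, and the vertical line divides the LPS from the control samples. XR_592660, XR_349493 and XR_355499 share their pattern, and XR_594785 has the widest deviation, below its group mean in LPS rats 1 and 3.

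The same correlation was taken with the 20 mRNAs that the study's supplementary list pairs with probes, 10 listed as higher and 10 as lower after LPS. The choice of the lncRNAs and of the mRNAs enters the values over both groups. There, 96 of the 200 pairs of a lncRNA and an mRNA had an absolute correlation of at least 0.9. Within groups, 3 did. These 3 were XR_596552 with Mtfp1, XR_349493 with C3 and XR_349314 with Cib2. Mtfp1 encodes an inner mitochondrial membrane protein that promotes fission, and its r with XR_596552 was -0.95, and -0.87 with ENSRNOT00000089798. Mtfp1 was not alone, since both lncRNAs had a negative r with all 10 mRNAs listed as lower. In the same order, r was -0.87 and -0.71 with Scd, -0.80 and -0.82 with Cox8b, and -0.79 and -0.81 with Adssl1. C3 encodes the central complement component, and its r was 0.92 with XR_349493 and 0.78 with XR_592660, the pair of lncRNAs that varied most alike. Cib2 encodes a calcium- and integrin-binding protein, and its r with XR_349314 was -0.91. Leaving out any 1 array kept these 3 between -0.91 and -0.97, 0.90 and 0.98, and -0.89 and -0.92, respectively.

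For each of the other lncRNAs, the highest of 20 values is given, and 10 of the 20 mRNAs were listed because they were higher after LPS. XR_362127 had r = 0.89 with Cxcl1, which encodes a neutrophil-attracting chemokine, and 0.84 with both Il6, the interleukin-6 gene, and Ccl7, which encodes a monocyte-attracting chemokine. XR_592112 was most like Il6, with r = 0.65. XR_349314 was most like Ccl7, with r = 0.71, which was 0.21 without control rat 20. ENSRNOT00000077237 was most like Lcn2, the gene of the iron-siderophore carrier lipocalin 2, with r = 0.78, and normexp background correction turned this to -0.17. The highest value of XR_596552, 0.32 with Cxcl1, was -0.40 without control rat 18.

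For XR_594785 and XR_355499 the most alike mRNA was one listed as lower after LPS. XR_594785 had r = 0.87 with Mtfp1 within groups and -0.42 over both groups, and XR_355499 had r = 0.75 with Fabp3, which encodes a fatty acid carrier of heart and muscle, and -0.49 over both. For XR_594785 the lowest value was -0.78 with Orm1, the gene of the acute-phase protein orosomucoid. At the low end, XR_592660 and XR_349493 had -0.71 and -0.64 with Sectm1b, a gene named for a secreted and transmembrane protein. ENSRNOT00000089798 was highest with Orm1, at 0.63, while XR_592112 was lowest with Orm1, at -0.31. XR_362127 had -0.68 with Shank2, which encodes a synaptic scaffold protein, and XR_355499 and ENSRNOT00000077237 had -0.57 and -0.43 with Ucp1. Without control rat 20 the value of XR_355499 with Ucp1 was -0.17, and without LPS rat 1 that of ENSRNOT00000077237 was 0.0087.

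**Figure D5:**
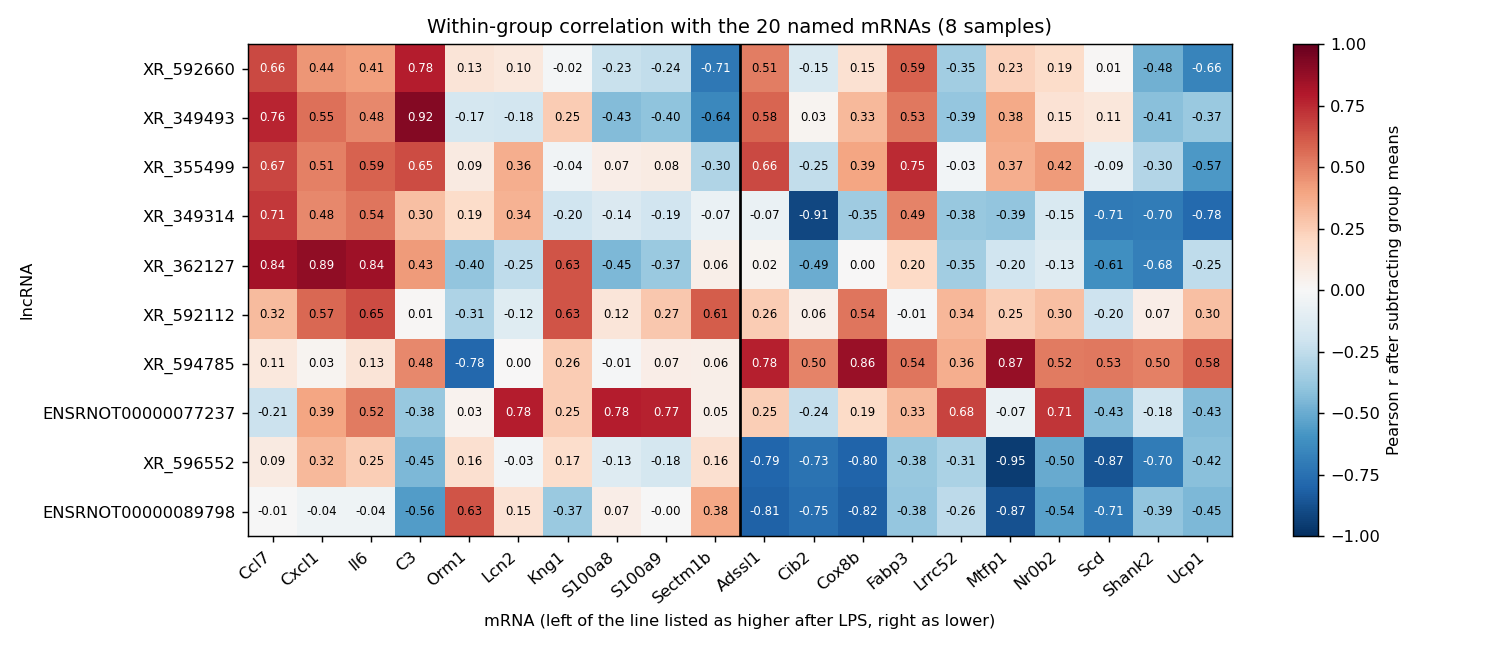
Pearson correlation of each of the 10 lncRNAs (vertical axis) with each of the 20 named mRNAs (horizontal axis) over 8 samples after the group means were subtracted; the vertical line divides the mRNAs listed as higher after LPS (left) from those listed as lower (right). The strongest cells are XR_596552 with Mtfp1 at -0.95, XR_349493 with C3 at 0.92 and XR_349314 with Cib2 at -0.91.

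A few genes that mark other cells of the tissue were read beside the 10 lncRNAs. Of the marker lists, only S100a8 and S100a9 (2 of 6 neutrophil genes) and Ucp1 and Cox8b (2 of 4 brown adipocyte genes) could be read, because the files pair no probes with the others. These 4 have a named probe because the study listed them among its most changed mRNAs in this same contrast, so their difference between the groups was fixed by that choice and is given as a description. The smooth muscle and endothelial markers that define the aorta were therefore not read. S100a8, a calcium-binding protein gene of neutrophils and monocytes, was between 4.98 and 6.18 in the LPS samples and between -0.94 and 2.004 in the controls, and S100a9, its partner, between 4.51 and 5.48 and between -0.50 and 2.07. Ucp1, the uncoupling protein gene of brown fat, was between 4.88 and 6.30 in the LPS samples and between 8.09 and 9.64 in the controls, and Cox8b, a cytochrome oxidase subunit gene, between 2.23 and 4.73 and between 4.50 and 7.02. The groups did not overlap for S100a8, S100a9 and Ucp1, and they did for Cox8b.

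Within groups, ENSRNOT00000077237 was the lncRNA most like the neutrophil markers, with r = 0.78 for S100a8 and 0.77 for S100a9. For the other 9 these values lay between -0.45 and 0.27. However, ENSRNOT00000077237 deviated from its group means only between -0.295 and 0.272, while its near-identical arrays of LPS rats 1 and 3 differed by 1.13. Its r with Lcn2, also 0.78, was -0.17 with normexp background correction. The marker correlations are given for the main setting only. With Cox8b, r was 0.86 for XR_594785, -0.82 for ENSRNOT00000089798 and -0.80 for XR_596552, and with Ucp1 it was -0.78 for XR_349314 and 0.58 for XR_594785. The part of these cells in the levels of the 10 lncRNAs was not tested.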

How the data were processed

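Scanner files of 10 single-colour arrays were analysed, grouped by the sample labels. The authors deposited background-corrected intensity values per spot, made with Agilent Feature Extraction 11.0.1.1 per the submitters' processing notes, and a table of processed log2 values whose normalisation is not given in the sources used here. Dose and time were taken from the methods. Spots marked as outliers were left out, intensities were set on the log2 scale against the array's own 75th percentile, spots of a probe were averaged, and a probe was tested if at least 5 of 10 arrays read it well above background. Arrays of LPS rats 1 and 3 and of control rats 15 and 17 were averaged. limma 3.58.1 (R 4.3.3, lmFit and eBayes) was fitted to 4 LPS and 4 control samples, with Benjamini-Hochberg adjustment over mRNA and lncRNA probes, and calls past a fold change of 1.5 and below an adjusted p of 0.05. The limma step was tested on simulated data. Correlations, after subtraction of group means, used Python 3.11.15. The 10 lncRNAs, gene lists and marker lists were chosen with earlier results of these data known.

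All 10 lncRNAs are named, as are the mRNAs with the highest and lowest within-group correlation with each, the 4 cell markers, the probe next below the last of the 10 and the neighbouring RefSeq genes. Mtfp1, Scd, Adssl1, Il6 and Ccl7 values with further lncRNAs, and those of the markers with single lncRNAs, were chosen after they were seen. Sequences came from the study's primers and from RefSeq promoters (GRCr8). Sequences of the probes and of the lncRNAs themselves were not used here. The arrays give no read depth, and their number limits the precision. Alternatives were 10 separate arrays, quantile normalisation, normexp on the median intensity (the mean was not among the columns), the authors' values, other filters, a trended and robust prior, the slide as a fixed or random block, the methods' t-test, Spearman's rho and each array left out. Leaving out both arrays of a near-identical pair, and the authors' values of 10 separate arrays, were added after the data were seen. The correlations were not recomputed without both arrays of a pair.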

Additional observations from a re-analysis of the deposited data

Results flagged for a closer look

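ENSRNOT00000089798 in control rat 18 was flagged as a sample far from the others of its group. Its level was -0.66, and the other 3 control samples lay between 0.03 and 0.09, so that the gap to the nearest took 0.917 of the range of the group, above the limit of Dixon's test for 4 samples. The 10 lncRNAs in both groups make 20 groups that were checked, and chance flags about 1 in 20. Without control rat 18 the difference of ENSRNOT00000089798 was 2.04.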

How the results depend on the processing

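The difference of each of the 10 lncRNAs stayed above 0 under every alternative run (230 values). Nothing is read from that sign, since the list was chosen for it. Of these values, 12 moved by over 1 SD, 4 with normexp background correction and the others with the slide. The slide as a fixed block and slide 2 alone gave the same differences, so those moves are counted under both. The other filters and the trended and robust prior cannot change a difference and repeat the main values. Normexp gave 1.95 for XR_592112, 1.22 for XR_592660, 1.38 for XR_349493 and 1.45 for ENSRNOT00000077237. The median difference of the 10 lay between 2.29 and 2.65 when 1 array was left out. The number of the 10 called by limma, 8, was 4 to 8 with 1 array left out (4 without LPS rat 5, 6 or 7), 5 with quantile normalisation, 5 without both control rats 15 and 17, 0 with the slide as a fixed block (9 at an unadjusted p under 0.05) and 2 by the methods' t-test after Benjamini-Hochberg adjustment. The number of lncRNA probes called higher, 31, was 13 to 42 with 1 array left out (13, 14 and 14 without LPS rats 5, 6 and 7, 18 without control rat 18), 98 with 10 separate arrays, 96 with 10 separate arrays in the authors' values and 14 with normexp. It was 0 with the slide as a fixed block (294 at an unadjusted p under 0.05), 70 with it as a random block, 18 for probes well above background on all 10 arrays, 18 without both LPS rats 1 and 3 and 20 without both control rats 15 and 17. The methods' t-test gave 382 without adjustment and 7 after it. Within groups, the number of pairs of lncRNAs with an absolute correlation of at least 0.9, 1, was 0 to 2 with 1 array left out (0 without LPS rat 5 or control rat 17 or 20, 2 without control rat 16), 0 with 10 separate arrays, and 2 each with quantile normalisation, the authors' values and Spearman's rho. The number of lncRNA and mRNA pairs, 3, was 2 to 8 with 1 array left out (8 without LPS rat 6, and 6, 5 and 7 without control rats 16, 18 and 20) and 6 with Spearman's rho. Among the highest and lowest mRNA correlations of each lncRNA and those of the most alike and most opposed pairs of lncRNAs, which were recomputed under the alternatives, only those of ENSRNOT00000077237 with Lcn2 (-0.17 with normexp), ENSRNOT00000077237 with Ucp1 (0.0087 without LPS rat 1) and XR_596552 with Cxcl1 (-0.40 without control rat 18) turned their sign. The cause of the shifts was not tested. Dim controls limit XR_592112, with intensities between 8.12 and 26.5 there, and XR_592660, with intensities between 16.6 and 132.5. No paired analysis was run because the groups share no numbers in their labels.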
